A study of Sus scrofa with 8 samples.

Results

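The myogenic factor genes described here are 8 protein-coding genes of the pig: MYOD1, MYF5, MYF6 and MYOG, DES, and MEF2A, MEF2C and MEF2D. They were chosen by name, for their place in the skeletal muscle programme and not for any measured value, although earlier results of these data were known. They are 8 of the 28077 RefSeq genes on chromosomes 1 to 18 and X of the assembly Sscrofa11.1. The cells were untreated pig embryonic fibroblasts (PEFs) taken from Large White fetuses at 35 days and cultured for 24 h in DMEM with 15% fetal bovine serum, with no other genotype, treatment or time to compare them with. Chromatin immunoprecipitation with sequencing (ChIP-seq) was made for H3K4me3, a histone mark of promoters, for H3K27ac, a mark of active promoters and enhancers, and for CTCF, a DNA-binding protein that marks insulators and loop anchors, with 2 replicates each. Nothing in the labels says whether the replicates were separate cultures or animals, so their spread may be technical, and how many fetuses gave the cells is not stated in the sources used here.

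MYOD1, MYF5, MYF6 (also called MRF4) and MYOG (myogenin) encode the basic helix-loop-helix factors of skeletal muscle. They bind E-box sites as dimers with E proteins. MYF5 and MYOD1 act early, when muscle precursors are specified, and MYOG acts later, when myoblasts differentiate and fuse. The MEF2 proteins are MADS-box factors that work with them on muscle genes and that are also used in many other cell types. DES encodes desmin, the intermediate filament protein of muscle cells. Fibroblasts are not a muscle cell type, and forced expression of MyoD is the textbook case in which a fibroblast is turned into a muscle cell.

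A member was called for a mark when a peak overlapped the window reaching 1 kb to each side of its start in both replicates, where the start is the 5′ end of the RefSeq gene record. Fold is the enrichment at the peak summit over the local control estimate, as the peak caller MACS2 gave it, and pairs of folds below are for replicate 1 and replicate 2. Each of the 7 regions is a gene body with 100 kb to each side, and MYF5 and MYF6, which are neighbours, make 1 region. The 6 peak lists held 37932 and 43516 peaks for H3K4me3, 74983 and 81164 for H3K27ac, and 40289 and 44682 for CTCF. They give no read counts, so the depth is unknown, and a missing peak says only that none was called. The cell type label was compared with 13 fibroblast markers, and all 13 had both H3K4me3 and H3K27ac peaks at the start in both replicates. Both marks were called at 58.9% of protein-coding genes (47.0% of all genes). All 5 smooth muscle markers had both marks too, so these calls do not single out fibroblasts.

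The sequences at the starts of the 4 bHLH genes are shown because their CpG content differs and because the marks at these starts differ too. Each runs 5′ to 3′ on the strand of the gene, from 250 bases before the start to 49 after it (the start base included), read from the RefSeq sequence of Sscrofa11.1, and capitals mark each CpG.
MYOD1 (chr2:41424187-41424486, minus strand): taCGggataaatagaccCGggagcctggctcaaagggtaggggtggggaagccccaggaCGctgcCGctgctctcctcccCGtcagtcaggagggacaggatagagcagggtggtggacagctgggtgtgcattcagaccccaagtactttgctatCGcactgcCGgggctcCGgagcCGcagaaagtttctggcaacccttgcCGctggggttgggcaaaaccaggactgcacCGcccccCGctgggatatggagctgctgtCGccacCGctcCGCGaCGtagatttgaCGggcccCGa
MYF5 (chr5:100755509-100755808, minus strand): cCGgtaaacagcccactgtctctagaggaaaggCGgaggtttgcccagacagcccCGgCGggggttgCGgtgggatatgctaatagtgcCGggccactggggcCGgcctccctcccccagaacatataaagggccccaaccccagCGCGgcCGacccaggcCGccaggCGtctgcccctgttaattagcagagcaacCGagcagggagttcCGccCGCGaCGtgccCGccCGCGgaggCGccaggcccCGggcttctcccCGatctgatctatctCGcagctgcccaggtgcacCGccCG
MYF6 (chr5:100764722-100765021, minus strand): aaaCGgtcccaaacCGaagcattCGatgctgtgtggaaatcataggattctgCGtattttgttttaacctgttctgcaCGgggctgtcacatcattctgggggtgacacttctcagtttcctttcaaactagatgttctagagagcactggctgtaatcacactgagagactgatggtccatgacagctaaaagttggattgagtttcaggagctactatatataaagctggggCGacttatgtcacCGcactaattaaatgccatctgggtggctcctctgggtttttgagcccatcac
MYOG (chr9:113785263-113785562, minus strand): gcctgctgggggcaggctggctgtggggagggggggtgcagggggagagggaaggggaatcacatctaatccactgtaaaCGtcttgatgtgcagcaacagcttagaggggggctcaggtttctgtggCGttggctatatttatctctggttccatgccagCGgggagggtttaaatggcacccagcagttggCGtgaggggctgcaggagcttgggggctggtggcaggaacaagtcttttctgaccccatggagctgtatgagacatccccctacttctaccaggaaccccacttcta

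These 300 bases held 19 CpGs at MYOD1, 26 at MYF5, 7 at MYF6 and 4 at MYOG. For MEF2A and MEF2C the sequences shown are those where H3K4me3 was found, since no peak lay at the start of either gene record. The MEF2A sequence is centred on the H3K4me3 summit of replicate 1 upstream of the gene. The MEF2C sequence surrounds the first start of the largest group of its transcripts, 20.5 kb into the gene record. This group holds 22 of the 49 transcripts, with several nearby starts, so the label "start of most transcripts" means the largest group and not a majority. They held 25 and 13 CpGs.
MEF2A, upstream H3K4me3 summit (chr1:138342267-138342566, plus strand): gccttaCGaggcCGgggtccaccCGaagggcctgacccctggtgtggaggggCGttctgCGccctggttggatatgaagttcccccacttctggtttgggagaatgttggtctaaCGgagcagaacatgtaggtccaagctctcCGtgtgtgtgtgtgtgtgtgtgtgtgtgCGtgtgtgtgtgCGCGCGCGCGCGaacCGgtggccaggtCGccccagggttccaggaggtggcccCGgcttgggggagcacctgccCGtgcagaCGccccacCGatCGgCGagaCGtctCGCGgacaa
MEF2C, start of most transcripts (chr2:96276361-96276660, minus strand): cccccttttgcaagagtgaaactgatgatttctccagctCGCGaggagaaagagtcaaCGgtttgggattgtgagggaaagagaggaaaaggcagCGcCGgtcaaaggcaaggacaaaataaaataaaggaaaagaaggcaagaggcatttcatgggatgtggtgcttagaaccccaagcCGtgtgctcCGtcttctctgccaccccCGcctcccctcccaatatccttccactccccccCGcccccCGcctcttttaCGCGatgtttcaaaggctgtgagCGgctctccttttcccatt

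At the gene starts, H3K4me3 was called at 5 of the 8 members: MYOD1, MYF5, MYF6, DES and MEF2D. By the same rule 55.4% of all genes and 68.9% of the 19487 protein-coding genes were called, so the members' share of 62.5% lay between these backgrounds. H3K27ac was called at 3 members, MYOG, DES and MEF2D, which is 37.5% against 50.1% of all genes and 60.7% of protein-coding genes. CTCF was called at 1 member, MYOD1, which is 12.5% against 15.2% and 17.9%. With 8 genes, a difference of 1 gene moves these shares by 12.5 percentage points.

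Taken as a pair, the histone marks divided the members into 4 patterns. MYOD1, MYF5 and MYF6 carried H3K4me3 in both replicates and H3K27ac in neither, a state of 8.25% of protein-coding genes (6.89% of all genes). For MYF6 this rests on the 1 kb window: a weak H3K27ac peak inside its H3K4me3 peak ended just short of the window in both replicates, and with 5 kb MYF6 counts among the genes with both marks. DES and MEF2D carried both marks, as 58.9% of protein-coding genes did (47.0% of all genes). MYOG had H3K27ac without H3K4me3, through a peak whose summits lay 1238 and 1388 bp into the gene. The share of genes in this state was not computed. It can be no larger than the gap between the share with H3K27ac and the share with both marks. These were 60.7% and 58.9% of protein-coding genes (50.1% and 47.0% of all genes). MEF2A and MEF2C had neither mark at the start of the gene record, as was the case for 27.5% of protein-coding genes. All 3 genes of the first kind encode bHLH factors, but 5 of 5 epithelial and 3 of 4 neural marker genes showed the same state. A link between this state and the role of the genes was not tested.

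**Figure D1:**
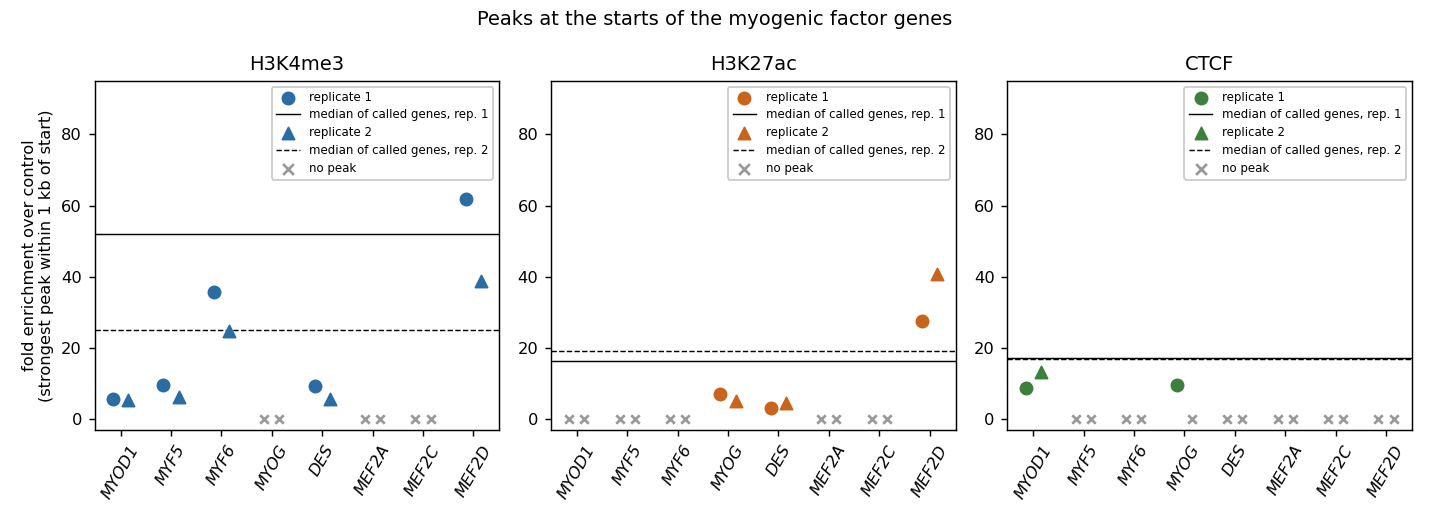
Fold enrichment (linear axis) of the strongest peak within 1 kb of the start of each of the 8 genes, for H3K4me3, H3K27ac and CTCF, with circles for replicate 1, triangles for replicate 2 and grey crosses at 0 where no peak was called; lines give the median over the called protein-coding genes in replicate 1 (solid) and replicate 2 (dashed). MEF2D lay above the H3K4me3 and H3K27ac lines in both replicates, whereas MYOD1, MYF5 and DES lay far below the H3K4me3 lines.

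The folds at the called starts covered a wide range. Over all called protein-coding genes the median fold at the start was 52.0 and 25.2 for H3K4me3, so this median was higher in replicate 1. MYOD1 had 5.74 and 5.42 (mean 5.58 ± 0.221, SD, n = 2), MYF5 had 9.56 and 6.22 (7.89 ± 2.36), and DES had 9.29 and 5.63 (7.46 ± 2.59). These 3 genes had weak peaks by this measure. Among all called RefSeq genes, protein-coding or not, only 3.28% and 4.76% were lower than MYOD1, and 6.45% and 6.10% were lower than MYF5. MYF6 had 35.7 and 24.8 (30.2 ± 7.67), in a peak placed in the gene body. MEF2D had 61.8 and 38.8 (50.3 ± 16.3), above the median of called genes in each replicate. MYOD1, MYF5 and DES did not overlap MYF6 or MEF2D in fold, while MYF5 and DES could not be separated from each other.

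MYOD1, the gene of the factor that can convert fibroblasts, lies at chr2:41422522-41424236 on the minus strand and is 1.72 kb long. Its H3K4me3 peak at the start was 943 and 1636 bp wide, with the summit 304 and 256 bp into the exon. A second H3K4me3 peak, stronger than the first, had its summit 2.2 and 2.3 kb from the start, past the 3′ end of the gene, with folds of 11.7 and 10.8. That peak overlapped the end of the gene body and was called in both replicates. The only other H3K4me3 peak of the region belonged to the start of the neighbour KCNC1, a potassium channel gene, with folds of 15.3 and 9.12.

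H3K27ac was sparse around MYOD1. Its region held 4 and 2 H3K27ac peaks, or 1.98 and 0.991 per 100 kb, where the median over the regions of protein-coding genes was 4.25 and 4.68. The nearest H3K27ac summit found in both replicates lay 101 kb away, and 91.7% of protein-coding genes had one nearer. The strongest H3K27ac peak had a fold of 3.62 in replicate 1 and 3.80 in replicate 2, at the start of LOC106509404.

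For CTCF the same region held 7 peaks in each replicate, all of them found in both. This was 3.47 per 100 kb, against medians of 2.47 and 2.73, and 71.3% and 65.9% of protein-coding genes were lower. The peak in the exon of MYOD1 had folds of 8.73 and 13.3, with summits 514 and 515 bp from the start. Further peaks followed downstream, at 2.5 kb with folds of 18.8 and 15.8 and at 11.9 kb with the strongest CTCF signal of the region, 34.1 and 34.9. On the upstream side the nearest CTCF peak was at −84.3 kb, in an intron of OTOG, with a fold of 8.73 in replicate 1. The peak at 2.5 kb lay beside the second H3K4me3 peak.

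MYF5 and MYF6 lie on the minus strand of chromosome 5, MYF5 at chr5:100753440-100755558 and MYF6 at chr5:100762918-100764771, with MYF6 upstream of MYF5. Both are overlapped by the long record LOC110260827, so an assignment of these peaks to 1 gene rests on the annotation. The H3K4me3 peak of MYF5 did not cover its start: the near edges were at −0.589 and −0.206 kb and the summits 0.819 and 1.03 kb away. The peak of MYF6 lay over its body, with the summit 1222 and 1594 bp downstream of the start and widths of 1465 and 1832 bp. It was the strongest H3K4me3 peak of the region in both replicates, and a transcript start of LOC110260827 lay within 1 kb of it as well.

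H3K27ac was also found in the body of MYF6, but weakly, with folds of 3.14 and 4.30. This peak ended just outside the 1 kb window and so did not count as a call at the start. The strongest H3K27ac peak of the region was 34.3 kb upstream of MYF5, with folds of 11.6 and 9.77 and widths of 3259 and 1807 bp. It fell in introns of PTPRQ and LOC110260827 and was accompanied by weak H3K4me3, at 6.28 and 6.06. The region as a whole held 3 and 4 H3K27ac peaks, or 1.42 and 1.89 per 100 kb, and 17.7% and 21.6% of protein-coding genes had a lower density.

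Only 3 CTCF peaks were called in the MYF5-MYF6 region in each replicate. One lay between both genes, 6.3 kb upstream of the MYF5 start, with folds of 9.11 and 13.8. The others were downstream of MYF5, at 42.5 kb with folds of 27.8 and 31.6 and at 57.9 kb with folds of 29.7 and 39.7. No CTCF peak was called upstream of MYF6 within the region.

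MYOG lies at chr9:113783233-113785312 on the minus strand and was the only member with H3K27ac and no H3K4me3 at its start. The H3K27ac folds were 7.06 and 5.26 (mean 6.16 ± 1.27), with summits 1238 and 1388 bp downstream of the start, in an intron, and widths of 858 and 1934 bp. The nearest H3K4me3 peak was 10.3 kb downstream, in PPFIA4, with folds of 16.1 and 5.90. A CTCF peak overlapped the H3K27ac peak at 1.3 kb, with folds of 9.67 and 7.69. In replicate 1 that CTCF peak reached into the 1 kb window and in replicate 2 it did not, so MYOG was not called for CTCF. On the upstream side the nearest CTCF peak was at −33.8 kb, with folds of 7.51 and 13.3, and downstream of the gene the nearest was at 37.5 and 37.6 kb, with folds of 6.40 and 7.49. The strongest H3K27ac peak of the region lay at the starts of TMEM183A and LOC100513809, with folds of 15.5 and 20.7. The region was not poor in H3K27ac, with 11 peaks in each replicate, and 62.8% and 57.5% of protein-coding genes had fewer per 100 kb.

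DES lies at chr15:121428539-121435426 on the plus strand, next to SPEG, another muscle gene. Its H3K27ac peak at the start had folds of 3.06 and 4.54 (mean 3.80 ± 1.05). Only 1.65% and 7.15% of all called RefSeq genes, protein-coding or not, were lower. A second, weaker H3K4me3 and H3K27ac pair lay in an intron 4.7 to 5.0 kb downstream, with H3K4me3 folds of 3.17 and 4.72 and H3K27ac folds of 3.41 and 5.59. The strongest intergenic H3K27ac of the upstream side was wider: in replicate 1 peaks at −8.7 and −6.6 kb had folds of 7.92 and 8.36, and in replicate 2 a single peak of 6238 bp at −9.4 kb had 12.8. CTCF peaks lay at its far edge and within it, at −12.6 kb with folds of 31.2 and 44.0 and at −10.3 kb with 17.5 and 21.3. On the other side of DES the nearest CTCF peak was at 11.9 kb, with folds of 36.4 and 40.1. No CTCF peak was called inside DES. The strongest H3K27ac peak of the region lay at the start of GMPPA, with folds of 25.3 and 23.5.

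**Figure D2:**
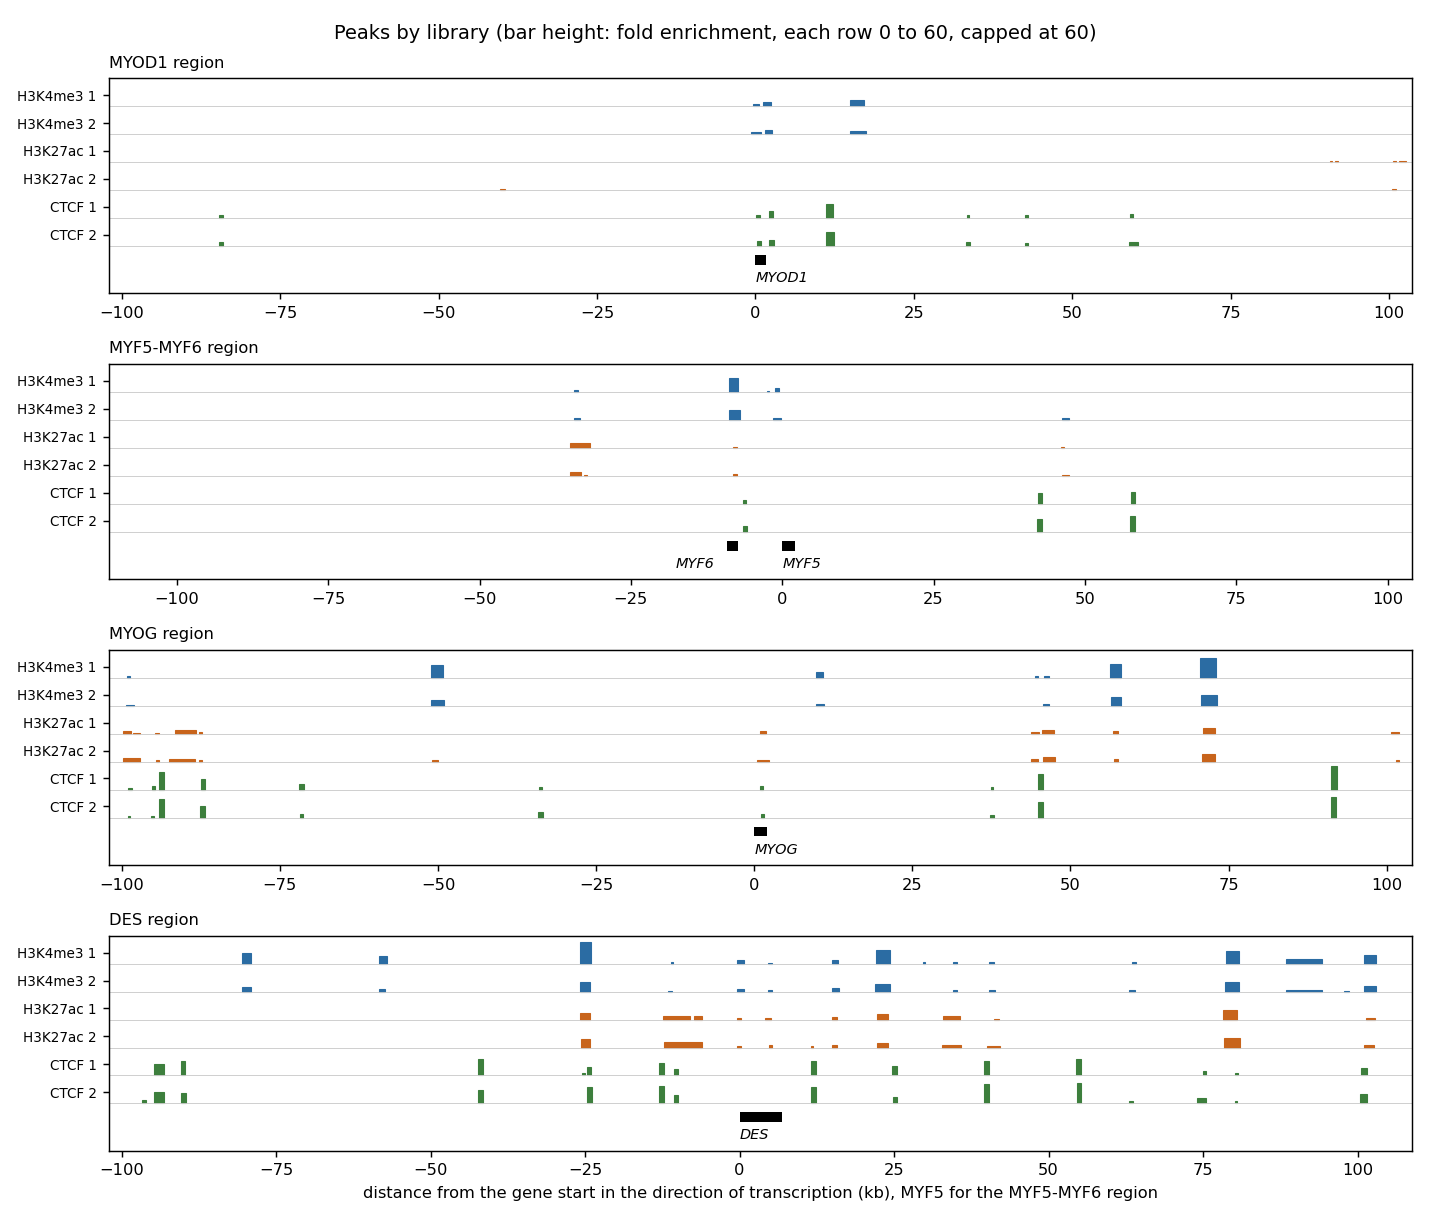
Peaks of the 6 libraries across the regions of MYOD1, MYF5-MYF6, MYOG and DES, drawn to scale by distance from the gene start in kb (from MYF5 in the shared region), with bar width giving peak width and bar height giving fold from 0 to 60 in each row; black bars are the gene bodies. H3K27ac peaks are few around MYOD1 and MYF5-MYF6, and most CTCF peaks recur at the same places in both replicates. In the MYF5-MYF6 region CTCF peaks are as few, with 3 in each replicate beside 3 and 4 H3K27ac peaks that also recur.

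The 3 MEF2 genes differed from each other. MEF2D, at chr4:93581563-93616980 on the plus strand, had the broadest peaks of the members at its start. Its H3K4me3 peak was 6371 and 7370 bp wide, wider than 98.3% and 98.7% of the peaks of its library. Its H3K27ac peak was 13247 and 13142 bp wide, wider than 99.5% in both, with folds of 27.7 and 40.8 (mean 34.2 ± 9.32), and it also covered the start of LOC106510129. A further H3K27ac peak of 17.4 and 15.4 stood further upstream, in an intron of LOC106510129. Across the region H3K27ac density was 7.65 and 9.77 per 100 kb, and 81.1% and 87.6% of protein-coding genes were lower. The CTCF peak nearest to the MEF2D start lay inside the gene at 2.7 kb and was weak, with folds of 5.09 and 3.87. Upstream the nearest stood at −17.7 and −17.6 kb with 14.5 and 24.7, and past the 3′ end the nearest was at 43.1 kb, with 7.06 in replicate 1 and a higher fold in replicate 2.

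The record of MEF2A, at chr1:138398270-138508639 on the plus strand, is marked partial in the annotation, and none of its 2 transcript starts had a peak of any kind within 1 kb. A strong H3K4me3 peak lay 55.9 and 55.1 kb upstream instead, with folds of 67.5 and 35.1 and widths of 5146 and 5869 bp. No RefSeq gene start was within 1 kb of it. H3K27ac covered the same place, with folds of 23.2 and 24.7 and widths of 4716 and 4749 bp. The nearest CTCF peak on the upstream side was at −42.2 kb, with a fold of 7.51 in replicate 1 and a higher one in replicate 2, and past the 3′ end it was at 165.5 kb, with 16.7 and 23.2. The region had 1 other protein-coding gene, LYSMD4. Within the body of MEF2A the strongest H3K27ac peak was at 99.7 and 99.8 kb, with folds of 16.3 and 15.6 and widths of 4866 and 4975 bp, and CTCF lay beside it at 101.0 kb with folds of 22.4 and 26.9.

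MEF2C, at chr2:96122407-96296927 on the minus strand, has 49 annotated transcripts with 40 distinct starts. The start of the gene record, used by 13 transcripts, had no peak. The start group at 15.8 kb (3 transcripts) had H3K4me3 at 24.0 and 12.9 and H3K27ac at 12.4 and 15.4. The groups at 19.5 and 20.5 kb, with 3 and 22 transcripts, shared an H3K4me3 peak of 40.7 and 28.8 and an H3K27ac peak of 16.0 and 14.5. These peaks were broad, 4514 and 9992 bp for H3K4me3 and 9991 and 9770 bp for H3K27ac. Taking any transcript start, the members with H3K4me3 rose from 5 to 6 and those with H3K27ac from 3 to 4, and the gene added was MEF2C in each case; by that rule 72.0% and 63.7% of protein-coding genes were called (57.8% and 52.3% of all genes). For CTCF the count stayed at 1, beside 20.8% of protein-coding genes (17.3% of all genes).

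Further H3K27ac peaks were spread over the introns of MEF2C. At 109.3 and 109.4 kb the folds were 17.8 and 13.4, the highest of the region in replicate 1. On the other side, in the overlapping record LOC102159394, peaks at −39.4 and −50.0 kb had 15.9 and 14.4 in replicate 1 and 10.4 and 11.5 in replicate 2. CTCF was absent from most of the body: a weak peak at 24.8 kb had 6.88 and 4.81, and the next was at 139.2 kb with 28.4 in both. Beyond it stood the strongest CTCF peak of the gene body, at 163.0 kb with 56.4 and 66.7, and past the gene a peak at 196.3 kb with 56.3 and 58.5.

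**Figure D3:**
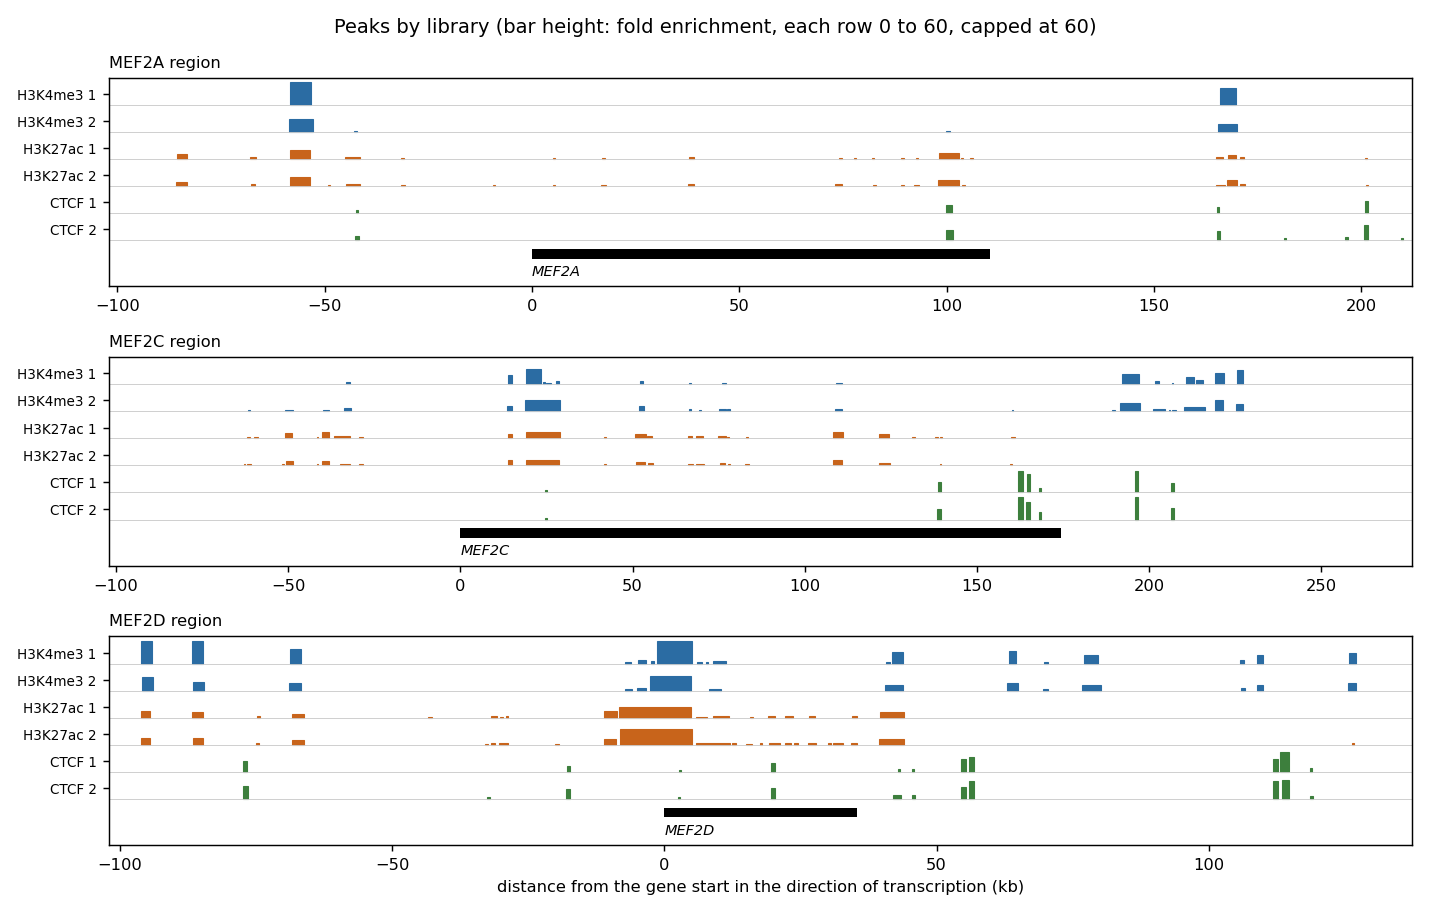
Peaks of the 6 libraries across the regions of MEF2A, MEF2C and MEF2D, drawn to scale by distance from the start of the gene record in kb, with bar width giving peak width and bar height giving fold from 0 to 60 in each row (capped at 60). The highest H3K4me3 bar of the MEF2A region stands about 55.9 kb before the record, that of MEF2C 20.0 kb inside it, and that of MEF2D at the start.

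Over the 7 regions, 1.74 Mb in all, 66 and 67 H3K4me3 peaks, 90 and 93 H3K27ac peaks and 56 and 61 CTCF peaks were called. Per 100 kb this was 3.79 and 3.85, 5.17 and 5.34, and 3.21 and 3.50, against 1.57 and 1.80, 3.11 and 3.37, and 1.67 and 1.85 over the whole chromosomes. Regions around genes hold more peaks than the chromosomes at large, so the fairer comparison is with the median region of a protein-coding gene, which had 2.56 and 2.81 H3K4me3, 4.25 and 4.68 H3K27ac and 2.47 and 2.73 CTCF peaks per 100 kb. MYOG, DES and MEF2D lay above all of these medians in both replicates, and MYF5-MYF6 lay below all of them.

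CpG content was examined because it was not used to choose the genes. The ratio of observed to expected CpGs over 500 bp to each side of the start had a median of 0.758 where H3K4me3 and H3K27ac were both called, 0.700 where H3K4me3 was called without H3K27ac, and 0.271 where no H3K4me3 peak was called in either replicate. MYOD1, MYF5, DES and MEF2D had ratios of 0.802, 0.715, 0.724 and 0.680. MYF6 had 0.398 and MYOG 0.347, while the starts of the MEF2A and MEF2C records had 0.129 and 0.237. At the upstream H3K4me3 summit of MEF2A the ratio was 0.846, and at the first start of the largest group of MEF2C transcripts it was 0.858. These places were shown because H3K4me3 was found there, so their ratios were not chosen apart from the mark. The MEF2A window also holds a run of TG and CG repeats, which adds CpGs. MYF6 and MYOG were scored at the annotated start only. The 3 members without an H3K4me3 call thus had the 3 lowest ratios at their annotated starts.

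**Figure D4:**
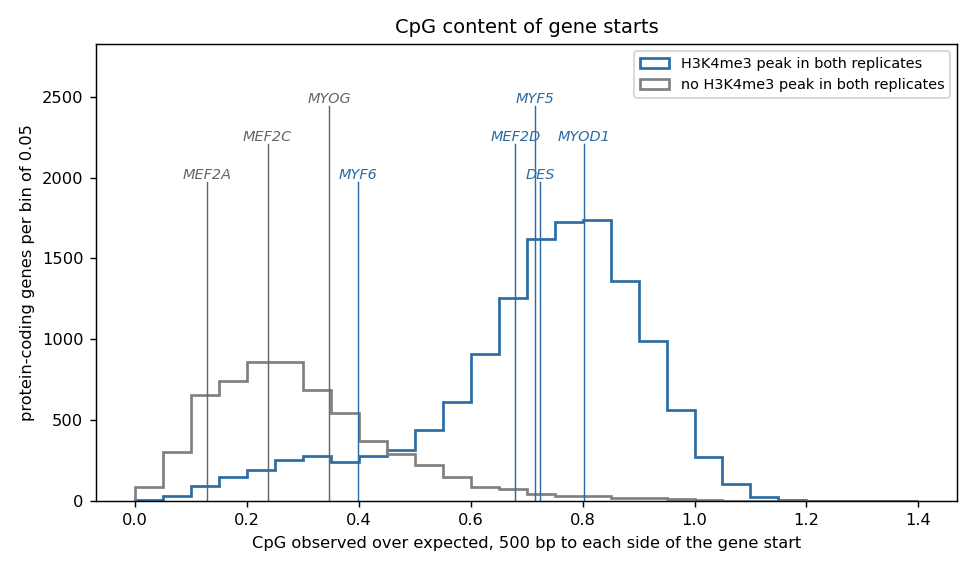
Number of protein-coding genes in each bin of the CpG ratio (observed over expected, 500 bp to each side of the start), with genes that have an H3K4me3 peak in both replicates in blue and the others in grey; vertical lines mark the 8 members, blue where H3K4me3 was called. MEF2A, MEF2C and MYOG lie lowest, from 0.129 to 0.347, followed by MYF6 at 0.398.

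Letters of known motifs were searched on both strands of the 300 bases around the start of each gene record, for the 8 members and for all 19486 protein-coding genes with such a window. The E-box CANNTG, the site of bHLH dimers, was present in 67.8% of all promoters, and 7 of the 8 members had at least 1, all but MEF2D. Its form CAGCTG, which every CANNTG count includes, was present in 16.6% of promoters and in those of MYOD1, MYF5, DES and MEF2A. TATAAA was found in 10.8% of promoters and in those of MYF5, MYF6 and MEF2A. The MEF2 site was searched as YTAWWWWTAR, where Y is C or T, W is A or T and R is A or G. This pattern was found in 2.88% of promoters and in that of MYF6 alone among the members. The MYOG promoter holds CTATATTTAT, which misses the pattern at its last letter and so was not counted. A match describes letters only and does not show that a factor binds there.

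CTCF sites are shown for the peaks nearest to MYOD1 and for the peaks of the MYF5-MYF6 region, since CTCF outnumbered H3K27ac at MYOD1. The motif of 19 bases was learned from CTCF peaks of odd-numbered chromosomes outside the 7 regions, and a site counted when its score passed the value that 5% of control windows 1 kb away reached. On even-numbered chromosomes 81.0% and 78.6% of CTCF peaks had a site, and in the 7 regions 47 of 56 (83.9%) and 51 of 61 (83.6%). The sites run 5′ to 3′ on the strand of the motif, with capitals for the 19 bases of the match, whose position is given.
MYOD1, 0.5 kb (chr2:41423711-41423729, plus strand): ggccgCTGCAGCGCCAGGGGGCGCggcgt
MYOD1, 2.5 kb (chr2:41421688-41421706, plus strand): ccttcTTTCTCCTACAGAGGTCGCtgcgg
MYOD1, 11.9 kb (chr2:41412374-41412392, minus strand): ccagaTGTGGCCACAAGATGGCACcccaa
MYF5-MYF6, −6.3 kb (chr5:100761788-100761806, plus strand): ctgcaCCACGCCTGCAGGGGGCGCcgtct
MYF5-MYF6, 42.5 kb (chr5:100713036-100713054, plus strand): tggccTTTGCCCACTAGATGCCAGtaaca
MYF5-MYF6, 57.9 kb (chr5:100697657-100697675, plus strand): ttctaGCTGACCACCAGGTAGCAGacaaa

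All 7 CTCF peaks around MYOD1 and all 3 around MYF5-MYF6 held such a site in both replicates. The site at 2.5 kb scored just over the threshold of 10.7, whereas the site at 11.9 kb, under the stronger peak, scored 22.2. The 3 sites of MYF5-MYF6 all lay on the plus strand, opposite to the direction of both genes.

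Genes that work with the myogenic factors were counted as a list of 30 partners and regulators. H3K4me3 was called at 24 of 30 (80.0%) and H3K27ac at 21, with both marks at 20. Over all protein-coding genes these shares were 68.9%, 60.7% and 58.9%. Taking any transcript start, 29 of the 30 had H3K4me3 and 24 had H3K27ac, beside 72.0% and 63.7% of protein-coding genes. The 3 E protein genes TCF3, TCF4 and TCF12, whose products pair with the bHLH factors, and the 4 ID genes, whose products keep E proteins from pairing, all carried both marks in both replicates. By H3K4me3 fold the highest were TWIST1, a bHLH gene of mesenchyme, with 61.8 and 48.2, TCF21, a bHLH gene of fibroblast lineages, with 61.6 and 44.7, and SRF, a MADS-box gene, with 71.7 and 24.9. PAX3, PAX7, LBX1 and VGLL2, which act in muscle precursors, had H3K4me3 without H3K27ac, as MYOD1, MYF5 and MYF6 did.

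Of 26 genes for muscle structure and fusion, H3K4me3 was called at 7 (26.9%) and H3K27ac at 6 (23.1%), and 15 had neither mark, beside 68.9%, 60.7% and 27.5% of protein-coding genes. The highest H3K4me3 folds were at TNNC1, the troponin C of slow and cardiac muscle, with 67.3 and 29.1, ACTC1, cardiac actin, with 14.5 and 10.3, and TNNC2, the troponin C of fast muscle, with 13.1 and 8.38. All 5 smooth muscle markers had both marks at the start, with MYH11 at 39.3 and 19.4 for H3K4me3. Markers of other cell types mostly lacked H3K27ac: it was called at 0 of 5 epithelial, 0 of 4 endothelial, 0 of 4 neural, 1 of 4 blood and 1 of 4 liver genes, while H3K4me3 was called at 5, 1, 3, 0 and 1 of them. The presence of a few other cells in the cultures was not tested.

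**Figure D5:**
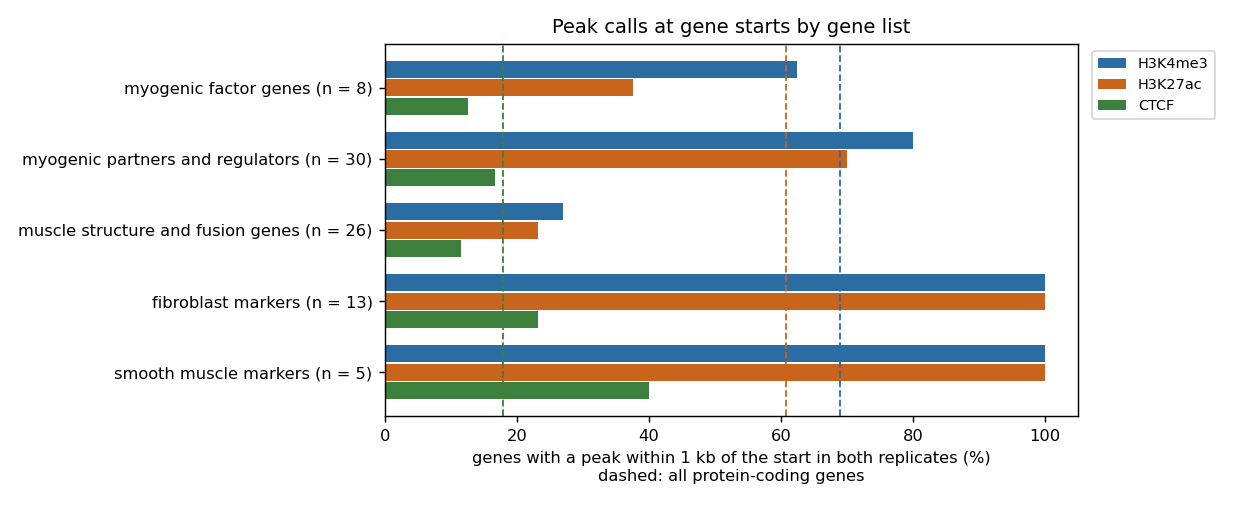
Share of genes (%) with a peak within 1 kb of the start in both replicates, for H3K4me3, H3K27ac and CTCF, in the 8 myogenic factor genes and 4 other gene lists; dashed lines give the share over all protein-coding genes. Fibroblast and smooth muscle markers reach 100% for both histone marks, and muscle structure and fusion genes reach 26.9% and 23.1%.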

How the data were processed

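ChIP-seq of H3K4me3, H3K27ac and CTCF in untreated pig embryonic fibroblasts gave 6 peak lists, 2 replicates each. The 2 input libraries have no file and were not analysed here. Per the study's methods, the authors aligned reads to Sscrofa11.1 (Bowtie2), discarded duplicate and non-unique fragments (Picard, samtools), and ran MACS2 on each library for narrow peaks. The deposited lists give a score, which was not used, a fold enrichment at the summit (a ratio to the local control estimate), and −log10 p-values and −log10 q-values. The methods state a q-value of 0.01, while the deposited lists reach q-values of 0.0432 to 0.0499 at most. Versions are not given in the sources used here.

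From these lists, peaks on chromosomes 1 to 18 and X were placed on RefSeq Sscrofa11.1 genes (annotation release 106) with Python 3, numpy and pandas. A gene was called when a peak overlapped by at least 1 bp the 1 kb to each side of its start in both replicates. Regions reached 100 kb past the gene body. No test was run: 2 replicates of 1 condition allow none, and counts stand beside the share of all genes called by the same rule. The peak lists hold no counts, so the depth is unknown and no interval was given. The calls at gene starts and the motif search were tested on simulated data. MRTFA and MRTFB were matched under their older symbols MKL1 and MKL2, and MYH3, MYH8, MB and MYMX were not matched and were not analysed here.

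The members and lists were chosen with earlier results of these data known. All 8 members were named, with the strongest peak of each mark at the start, the strongest H3K27ac peak of the region and the nearest CTCF peaks on each side. Of each of the 2 wider lists up to 3 genes were named, those called for H3K4me3 with the highest mean fold. E protein and ID genes were given as counts. PAX3, PAX7, LBX1, VGLL2, MYH11 and the other peaks described were named after their values were seen. Alternatives varied the distance, the q-value limit, the choice of start, the use of summits, the overlap between replicates, the flank and each replicate in turn.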

Additional observations from a re-analysis of the deposited data

How the results depend on the processing

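Of 54 alternatives to 9 results, 47 moved a count by 1.5 times or less. When the summit itself had to lie within 1 kb of the start, H3K4me3 was called at 2 members in place of 5 (MEF2D, MYF5 and MYF6 were lost) and H3K27ac at 1 in place of 3 (MEF2D and MYOG were lost). A distance of 5 kb added MYF6 to the H3K27ac calls, which ended its place among the genes with H3K4me3 alone, and gave CTCF at 4 members in place of 1, with MEF2D, MYF6 and MYOG added. CTCF was called at 2 members when 1 replicate was enough, and at 1 to 2 when a replicate was left out: without replicate 2, MYOG was added. The share of all genes called was not computed for the summit, 5 kb and single-replicate rules. These changes in count therefore cannot be read as particular to the members. A flank of 50 kb left 36 CTCF peaks in the 7 regions in place of 58.5 (mean of the replicates), the regions being smaller. A −log10 q of at least 5 left 1.5 H3K27ac peaks in the MYF5-MYF6 region in place of 3.5, and it also removed DES from the H3K27ac calls. No paired analysis was possible because no result comes from a test. The lists hold no read counts and no depth, so how far a place without a peak lies under the calling limit cannot be told.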

Other observations

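The regions of MEF2C and MEF2D each hold a gene of the microRNA miR-9, which is known from neural tissue. At MIR9-2, downstream of MEF2C, the H3K4me3 peak had folds of 28.5 and 28.2, and at MIR9-1, downstream of MEF2D, folds of 23.1 and 15.5. No H3K27ac peak was called within 1 kb of either start. Past the 3′ end of MEF2C, H3K4me3 peaks continued from 196.1 to 226.5 kb in replicate 1, with folds up to 37.3, and no H3K27ac peak was called in that flank in either replicate. These genes were named after their values were seen, and no test was run on them.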
